A study of Homo sapiens with 6 samples.

Results

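The genes described here encode the 10 subunits of the human RNA exosome, EXOSC1 to EXOSC10. They were found by their gene names in a table of 58825 genes, and all 10 were among the 19510 genes tested, those averaging 0.1 or more FPKM (read fragments scaled for transcript length and library size). The RNA came from HK-2 cells, a human proximal tubule epithelial line immortalised with viral oncogenes. The 3 Control libraries came from cells labelled untreated, with no time given, and the 3 OX-LDL libraries came from cells kept in 25 µg/mL oxidized low-density lipoprotein for 48 h. HK-2 is the only line, and the labels number the replicates without saying that they were separate cultures, so the errors and p-values below cover the spread between these libraries. The subunits were picked because EXOSC6 was already known to be lower in these OX-LDL libraries. Their changes are therefore given as values with a standard error (SE), and nothing is read from tests of them.

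The RNA exosome is a complex that degrades or trims RNA from its 3′ end. It matures the 5.8S ribosomal RNA, removes faulty transcripts and short-lived nuclear transcripts such as promoter upstream transcripts, and turns over messenger RNA in the cytoplasm. Its core is a ring of RNase PH-like proteins that pair as EXOSC4 with EXOSC9, EXOSC5 with EXOSC8, and EXOSC6 (MTR3) with EXOSC7. A cap of the RNA-binding proteins EXOSC1 (CSL4), EXOSC2 (RRP4) and EXOSC3 (RRP40) sits over the ring. The human ring itself does not cut RNA. The cutting is done by EXOSC10 (RRP6), a nuclease found mainly in the nucleus, and by DIS3 or DIS3L.

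The libraries held 62561347 to 76797607 deposited counts. Excesses of genes at 4, 8 and 12 counts were read as about 4 counts per read pair, which gives 15640337 to 19199402 read pairs. The lowest count of any subunit in any library was 384. Of 13 proximal tubule and epithelial markers, 8 reached a mean of 0.1 FPKM, KRT8, KRT18, PAX8 and CDH2 among them. CDH1, the gene of E-cadherin, lay close to that limit, with group means of 0.0968 (Control) and 0.106 (OX-LDL). SLC5A2 was also low, with group means of 0.263 (Control) and 0.0679 (OX-LDL). GGT1 was uneven across Control replicates 1 to 3, at 3.13, 18.2 and 3.88 FPKM. LRP2 was listed at 0 counts in every library, and ANPEP, AQP1, CUBN and SLC34A1 stayed below a mean of 0.1 FPKM. The summed level of these proximal tubule and epithelial markers was 160 to 186 FPKM in Control and 213 to 251 FPKM in OX-LDL. The members did not move together. At an adjusted p under 0.05, 7.91% of all genes tested were higher and 7.42% lower. Of the 8 markers, 3 were higher (KRT8, KRT19 and CDH2) and 1 lower. The lower gene was PAX8, a kidney lineage factor, which fell from 46.6 ± 12.9 to 19.4 ± 4.17 FPKM (SD, n = 3 each; log2 fold change -1.23, SE 0.24, edgeR adjusted p = 0.0182). The PAX8 call was kept without Control replicate 3 or OX-LDL replicate 2 and lost without each of the other libraries (adjusted p 0.0541 to 0.0709), and that of CDH2 was lost without any single library (adjusted p 0.0539 to 0.115). Of 8 markers of other cell types, 2 reached that mean, CD68 and COL1A1, and the summed level was 3.32 to 8.31 FPKM in Control and 9.88 to 14.5 FPKM in OX-LDL. UMOD was at 0 counts, and PTPRC, VWF and NPHS1 held at most 12 counts in every library. Both sums were higher in OX-LDL, and their part in the subunit values was not tested.

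EXOSC6 was the subunit with the lowest OX-LDL level relative to its Control level. EXOSC6 (ENSG00000223496, chr16:70246778-70251940, minus strand, GRCh38) stood at 11.95, 12.5 and 12.8 FPKM in the Control libraries and at 3.94, 3.83 and 3.82 FPKM in the OX-LDL libraries. The groups lay far apart, and within each group the libraries were close together. The mean was 12.4 ± 0.420 FPKM (SD, n = 3) in Control and 3.86 ± 0.0696 FPKM (SD, n = 3) in OX-LDL, and the fitted log2 fold change was -1.65 (SE 0.07), a level 3.14-fold lower. Of all genes tested, 2.4% had a fitted change at least as far below 0. In bulk libraries, fewer cells of a type and less RNA per cell cannot be told apart.

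EXOSC6 also differs from the other subunits in its gene structure. In GENCODE release 29 it has 1 transcript with 1 exon of 5153 bases and is the only subunit gene tagged as a retrogene. The table lists 3 to 12 transcripts for each of the other 9 subunits, and their longest coding transcripts have from 2 exons (EXOSC4) to 25 exons (EXOSC10). A pseudogene copy of EXOSC6, AC083849, was at 0 counts in every library. Of 3 pseudogene copies of EXOSC3, the highest count in any library was 7.

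The sequence before the EXOSC6 start is shown because it lies in the short gap of 354 bases between EXOSC6 and the neighbouring AARS1 gene, whose level is described further on. The stretch comes from RefSeq (GRCh38.p14) and covers the 250 bases before the start, chr16:70251941-70252190 on the minus strand. It overlaps no gene in the table.
EXOSC6: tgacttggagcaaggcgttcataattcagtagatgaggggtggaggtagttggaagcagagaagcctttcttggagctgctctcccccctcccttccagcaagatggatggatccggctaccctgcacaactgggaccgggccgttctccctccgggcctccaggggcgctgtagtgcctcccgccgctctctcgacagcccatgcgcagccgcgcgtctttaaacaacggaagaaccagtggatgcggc
The letters TGATGNAA, the core of the element bound by C/EBP-ATF factors such as ATF4, were searched on both strands of promoter windows running from 250 bases before to 50 bases after each start. They occurred in 1270 of 35116 windows (3.62%). RefSeq windows were found for 8 of the 10 subunits, all but EXOSC1 and EXOSC4, and 0 of the 8 held these letters. The EXOSC6 window had a GC content of 62.3%, beside a median of 58.7% over all windows. Windows of genes near the subunits, described further on, were searched as well. Those of PGAM1, SMAD9, CCNA2 and SRM held 0 matches. The AARS1 window held 1 match, in capitals here, read on the strand opposite to the searched letters. Its first base lay 187 bases before the AARS1 start. The 30 bases printed are chr16:70289675-70289704 on the minus strand, where the table places DDX19B on the other strand.
AARS1: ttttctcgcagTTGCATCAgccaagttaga
A match of letters describes the sequence only.

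Among the partners of EXOSC6 in the ring, EXOSC8 and EXOSC4 were also lower in every OX-LDL library. EXOSC8 (ENSG00000120699, chr13:36998816-37008833) stood at 14.4, 16.5 and 15.5 FPKM in Control and at 8.65, 9.09 and 8.15 FPKM in OX-LDL. Its mean went from 15.4 ± 1.07 to 8.63 ± 0.468 FPKM (SD, n = 3 each), and its fitted log2 fold change was -0.81 (SE 0.08). EXOSC4 (ENSG00000178896, chromosome 8) stood at 5.63, 5.21 and 5.48 FPKM in Control and at 3.997, 3.05 and 3.13 FPKM in OX-LDL. The highest OX-LDL value of EXOSC4, in replicate 1, was still below its lowest Control value, and the fitted log2 fold change was -0.65 (SE 0.16). EXOSC4 shares its locus with AC109322 on the other strand, which went from 0.977 ± 0.202 to 0.545 ± 0.0927 FPKM (SD, n = 3 each; log2 fold change -0.81, SE 0.30, edgeR adjusted p = 0.119). The libraries were prepared with dUTP strand marking. Whether counting used strand was not given in the sources used here, so this pair may share reads.

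EXOSC5, the ring partner of EXOSC8, stood at 5.11, 5.54 and 6.08 FPKM in Control and at 4.50, 4.40 and 4.22 FPKM in OX-LDL (ENSG00000077348, chr19:41386374-41397359). All OX-LDL values were below all Control values, by a smaller step than in EXOSC4, and the fitted log2 fold change was -0.32 (SE 0.13). EXOSC7, the ring partner of EXOSC6 itself, stood at 3.43, 4.75 and 4.78 FPKM in Control and at 4.24, 3.48 and 3.49 FPKM in OX-LDL. The groups overlapped because Control replicate 1 was the lowest of all 6 values, and the fitted value was -0.18 (SE 0.16) on the log2 scale. EXOSC9, the partner of EXOSC4, ranged from 5.69 to 6.49 FPKM in Control and from 6.14 to 6.82 FPKM in OX-LDL. It had the highest fitted log2 fold change of the 10 subunits, 0.14 (SE 0.09), with overlapping groups. CCNA2, which encodes cyclin A2, overlaps EXOSC9 on the other strand and rose from 32.7 ± 3.20 to 68.1 ± 13.3 FPKM (SD, n = 3 each; log2 fold change 1.09, SE 0.16, edgeR adjusted p = 0.00775). As with EXOSC4, this pair may share reads if counting did not use strand. EXOSC5 and EXOSC7 are also overlapped by genes on the other strand, given further on, and carry the same limit.

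The cap subunits, which bind RNA at the entrance to the ring, overlapped between the groups in all 3 cases. EXOSC1 (ENSG00000171311, chr10:97436142-97446017) stood at 7.25, 9.39 and 8.03 FPKM in Control and at 4.76, 7.28 and 4.91 FPKM in OX-LDL. OX-LDL replicate 2 was marginally above Control replicate 1, while the other OX-LDL libraries lay well below all Control libraries. The fitted log2 fold change was -0.51 (SE 0.19), and -0.73 without OX-LDL replicate 2. EXOSC2 ranged from 11.02 to 12.05 FPKM in Control and from 10.8 to 11.7 FPKM in OX-LDL (log2 fold change 0.01, SE 0.07). EXOSC3 ranged from 5.03 to 6.92 FPKM in Control and from 4.56 to 6.89 FPKM in OX-LDL (log2 fold change 0.00, SE 0.18). EXOSC2 varied little within its groups, and EXOSC3 varied as much within a group as between the groups.

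EXOSC10, the nuclear exonuclease, was the most abundant subunit in both groups. It ranged from 24.7 to 26.4 FPKM in Control and from 25.7 to 27.3 FPKM in OX-LDL. Its groups overlapped, with means of 25.8 ± 0.911 and 26.7 ± 0.861 FPKM (SD, n = 3 each) and a log2 fold change of 0.08 (SE 0.06).

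**Figure D1:**
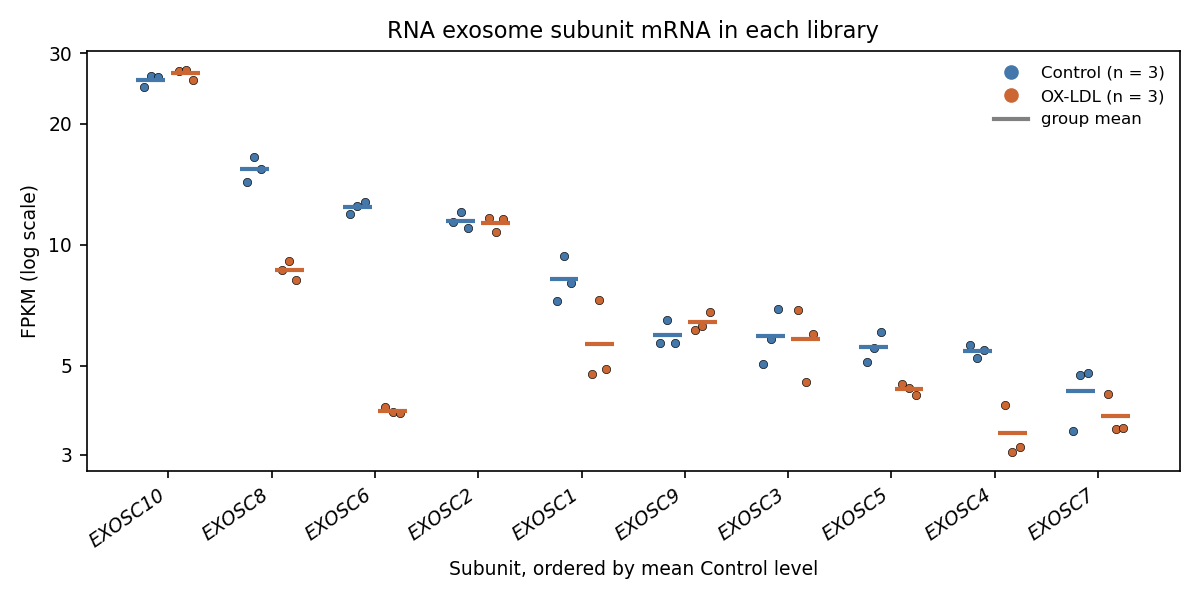
FPKM (log scale) of each subunit in the 3 Control and 3 OX-LDL libraries, 1 point per library and a bar at each group mean, with the subunits ordered by their mean Control level. EXOSC6 drops from 12.4 to 3.86 FPKM on average, EXOSC8 from 15.4 to 8.63 FPKM, and the points of EXOSC10, EXOSC2, EXOSC9, EXOSC3, EXOSC1 and EXOSC7 overlap between the groups.

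The plot of levels by library also shows the order of the subunits, which the choice of genes did not use within Control. By mean Control FPKM, a level per length, EXOSC10 came first, then EXOSC8, EXOSC6, EXOSC2, EXOSC1, EXOSC9, EXOSC3, EXOSC5, EXOSC4 and EXOSC7. The values of EXOSC6 and EXOSC2 overlapped, as did those of EXOSC9 with EXOSC3, EXOSC3 with EXOSC5 and EXOSC5 with EXOSC4, so these neighbours did not differ beyond their spread. In OX-LDL the order was EXOSC10, EXOSC2, EXOSC8, EXOSC9, EXOSC3, EXOSC1, EXOSC5, EXOSC6, EXOSC7 and EXOSC4. EXOSC6 moved from the 3rd place to the 8th, where its values overlapped those of EXOSC7, and those of EXOSC7 overlapped those of EXOSC4.

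Counted over the complex, 3 of 10 subunits (EXOSC6, EXOSC8 and EXOSC4) were lower at an adjusted p under 0.05, where 7.42% of all genes tested were, and 0 were higher, where 7.91% of all genes were (15.3% in either direction). The choice of EXOSC6 used the same comparison, so nothing is read from this count or from the calls of single subunits. The groups did not overlap for 4 subunits, all lower in OX-LDL and all in the ring (EXOSC4, EXOSC5, EXOSC6 and EXOSC8), where 20.5% of all genes tested were lower without overlap and 16.8% higher without overlap. EXOSC4 was the subunit just inside the threshold. It was past it without OX-LDL replicate 1 (log2 fold change -0.78) but fell short of it when any Control library was left out (-0.61, -0.69 and -0.64 for replicates 1, 2 and 3) and likewise for OX-LDL replicates 2 (-0.58) and 3 (-0.60).

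**Figure D2:**
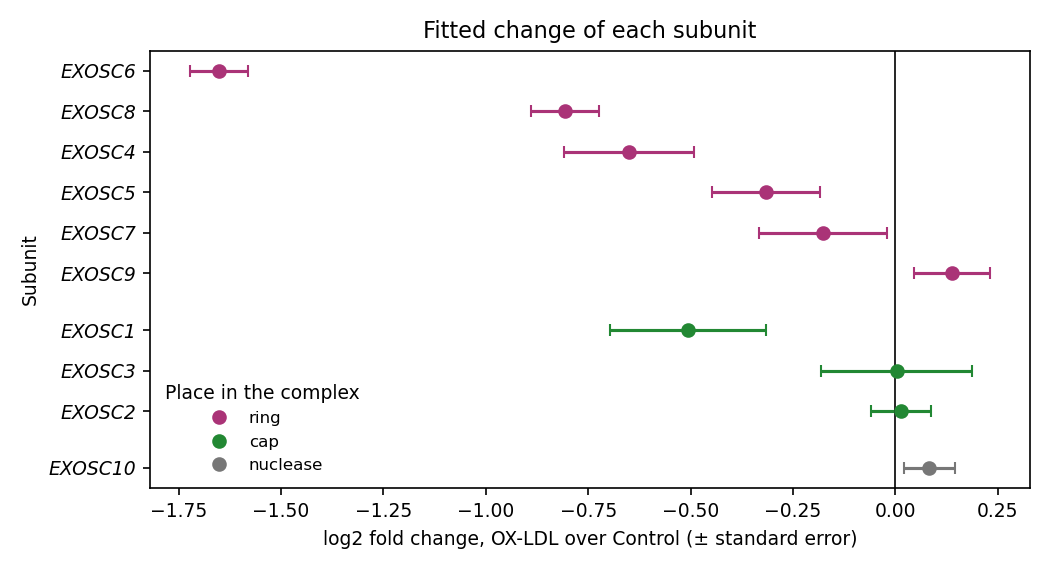
Fitted log2 fold change of each subunit (OX-LDL over Control, point) with its standard error (bar), grouped by place in the complex. EXOSC6 lies at -1.65 and the next lowest, EXOSC8, at -0.81; the other ring subunits spread from -0.65 (EXOSC4) to 0.14 (EXOSC9), the cap from -0.51 to 0.01, and EXOSC10 is at 0.08.

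Set against the rest of the complex, EXOSC6 changed its place in every library. The log2 fold changes of the other 9 subunits had a median of -0.18 and a mean of -0.25, between -0.81 and 0.14, with 5 below 0 and 4 above, beside a median of -0.0043 over all genes tested. That median of the 9 was -0.31 without Control replicate 1 and -0.10 without Control replicate 3. EXOSC2 (0.014) and EXOSC3 (0.0032) counted as above 0 only narrowly. Scaled by library totals alone, they were at -0.014 and -0.025. The log2 FPKM of EXOSC6 minus the mean log2 FPKM of the other 9 was 0.66, 0.54 and 0.59 in Control and -0.83, -0.80 and -0.78 in OX-LDL. EXOSC6 thus lay above the average of its partners in each Control library and below it in each OX-LDL library. The means were 0.60 ± 0.06 and -0.80 ± 0.03 (SD, n = 3 each), a difference of -1.40, or 2.64-fold.

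On the linear scale, EXOSC6 made up 12.6%, 11.95% and 12.5% of the summed FPKM of the 10 subunits in Control and 4.81%, 4.79% and 4.90% in OX-LDL. These shares hardly varied within a group. The sum of the 10 was 101 ± 5.30 FPKM in the Control libraries and 79.9 ± 2.06 FPKM in the OX-LDL libraries, and without EXOSC6 it was 88.1 ± 4.94 and 76.1 ± 2.00 FPKM (SD, n = 3 each). Both sums were lower in every OX-LDL library.

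The balance within the ring pairs differed between the groups as well. The FPKM ratio of EXOSC6 to EXOSC7 was 3.49, 2.63 and 2.67 in Control and 0.930, 1.10 and 1.09 in OX-LDL, so the EXOSC6 transcript went from a clear excess over its partner to near parity. The subunits overlapped on the other strand carry the limit of shared reads into these ratios. The ratio of EXOSC4 to EXOSC9 was 0.918 ± 0.10 in Control and 0.532 ± 0.104 in OX-LDL (SD, n = 3 each), lower in every OX-LDL library. The ratio of EXOSC5 to EXOSC8 went the other way, from 0.362 ± 0.0289 to 0.508 ± 0.0202 (SD, n = 3 each), higher in every OX-LDL library because EXOSC8 was the more strongly lowered of the pair.

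**Figure D3:**
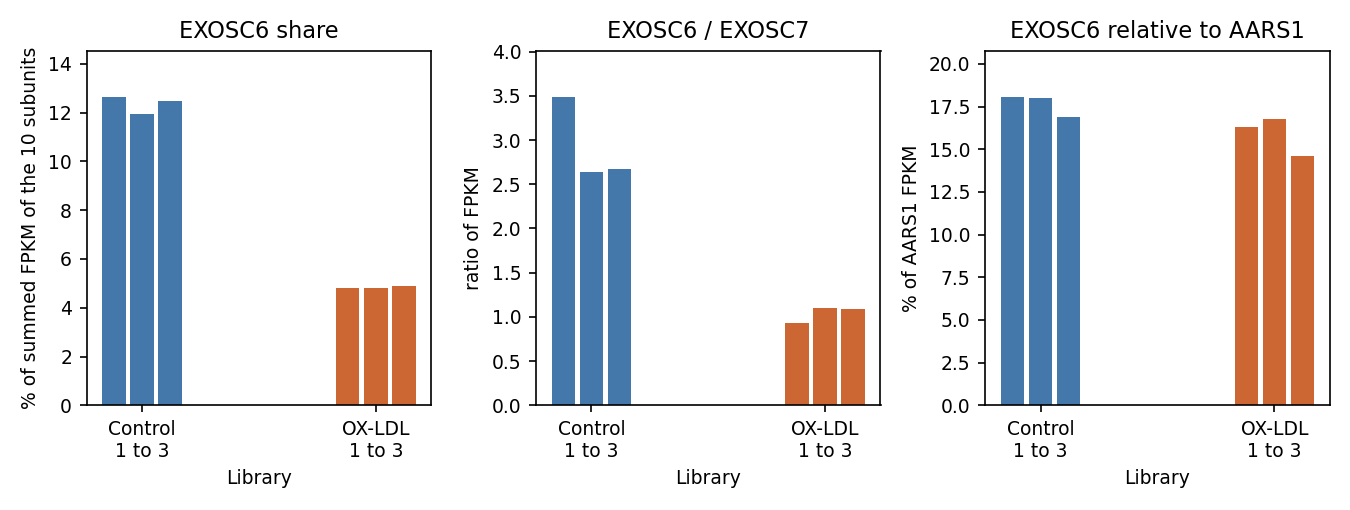
EXOSC6 in each library (1 bar per library, all axes from 0) as a percentage of the summed FPKM of the 10 subunits, as a ratio to the FPKM of its ring partner EXOSC7, and as a percentage of the FPKM of its neighbour AARS1. The share of the sum falls from 11.95 to 12.6% in Control to 4.79 to 4.90% in OX-LDL, while the percentage of AARS1 stays between 14.6 and 18.1% in all 6 libraries.

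The nearest tested gene to EXOSC6 was AARS1 (listed as AARS, ENSG00000090861, chr16:70252295-70289543, minus strand), which encodes the cytosolic alanyl-tRNA synthetase. It lies upstream of EXOSC6 on the same strand, with 354 bases between them. AARS1 stood at 66.2, 69.5 and 75.7 FPKM in Control and at 24.2, 22.9 and 26.1 FPKM in OX-LDL. It fell from 70.5 ± 4.81 to 24.4 ± 1.63 FPKM (SD, n = 3 each), a log2 fold change of -1.50 (SE 0.08, edgeR quasi-likelihood test, Benjamini-Hochberg adjusted p = 0.000421). Its groups lay clearly apart, with a wider relative spread within each group than EXOSC6. EXOSC6 amounted to 18.1%, 17.99% and 16.9% of the AARS1 level in Control and to 16.3%, 16.7% and 14.6% in OX-LDL. The percentage was lower in every OX-LDL library, with means of 17.6 ± 0.659% and 15.9 ± 1.13% (SD, n = 3 each). The EXOSC6 and AARS1 levels therefore moved by similar but not identical factors, whereas EXOSC6 and its ring partner EXOSC7 did not move alike.

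On the other side of EXOSC6, SMG1P7, a pseudogene copy of the kinase gene SMG1, lies 11408 bases away on the same strand. It stood at 3.15, 3.42 and 3.41 FPKM in Control and at 1.73, 0.917 and 1.73 FPKM in OX-LDL. The fitted log2 fold change was -1.15 (SE 0.25, edgeR adjusted p = 0.0258), but reads may be shared between SMG1 and its copies, so this value is uncertain. Its call was lost without each library except OX-LDL replicate 2, with adjusted p from 0.0554 to 0.0819.

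Within 200 kb of EXOSC6, 10 other genes were tested, and 2 of them, AARS1 and SMG1P7, were lower at an adjusted p under 0.05, 0 were higher and 8 did not pass (over all genes tested, 7.42% were lower and 7.91% higher). The median log2 fold change of the 10 was -0.26. The genes DDX19B, DDX19A and ST3GAL2, which lie beyond the AARS1 start, had log2 fold changes of -0.09 (SE 0.14), -0.25 (SE 0.10) and -0.18 (SE 0.13). PDPR, on the far side of SMG1P7, was at 0.12 (SE 0.31). PDXDC2P, a pseudogene at the edge of the window, was fitted at -2.70 (SE 1.47), a value set by 259 counts in Control replicate 3 against 6 to 19 counts in the other 5 libraries.

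**Figure D4:**
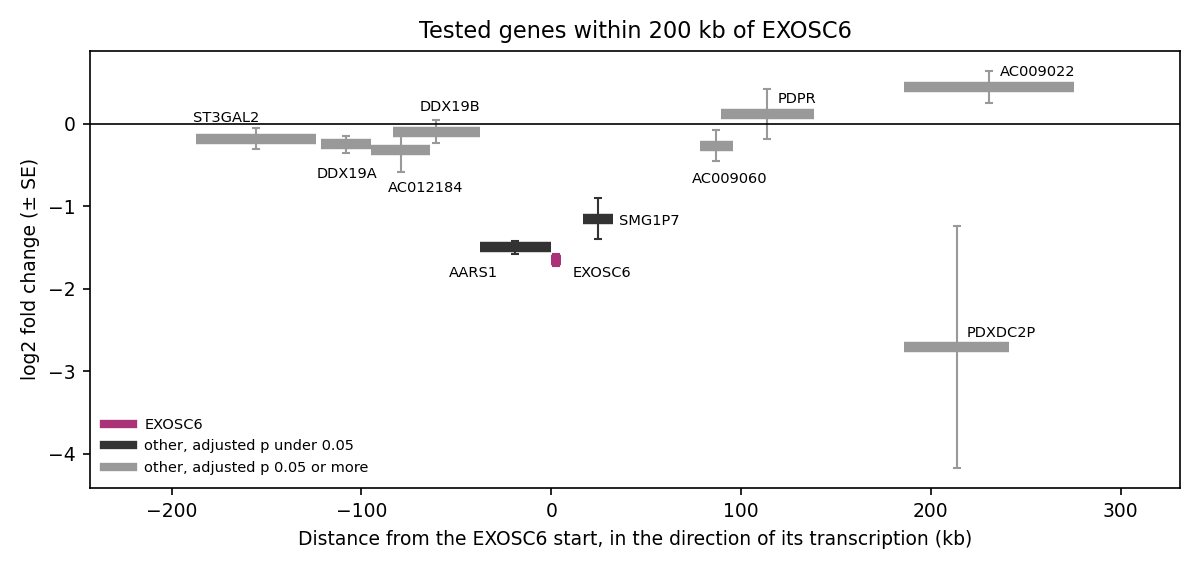
Fitted log2 fold change (OX-LDL over Control, with standard error bars) of EXOSC6 and the 10 other tested genes within 200 kb, drawn at their distance from the EXOSC6 start in kb, the width of each bar being the length of the gene. EXOSC6 (-1.65), AARS1 (-1.50) and SMG1P7 (-1.15) lie low next to each other, and PDXDC2P (-2.70) has the widest error.

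The tested genes nearest to the other subunits were read in the same way. Over all 10 subunits, 28 distinct neighbouring or overlapping genes were tested, and 2 were lower and 5 higher at an adjusted p under 0.05, beside 7.42% lower and 7.91% higher over all genes tested. The 2 lower genes were the neighbours of EXOSC6. The higher genes besides CCNA2 were PGAM1 (a glycolytic mutase), TOMM5 (a mitochondrial import pore subunit), SMAD9 (a BMP signal transducer) and SRM (spermidine synthase). Each was the nearest tested gene on its side of a subunit, at very unlike distances. PGAM1 lay 2697 bases from EXOSC1, TOMM5 174373 from EXOSC3, SMAD9 78050 from EXOSC8 and SRM 6599 from EXOSC10. TOMM5 rose from 5.94 ± 1.12 to 13.5 ± 1.07 FPKM (SD, n = 3 each; log2 fold change 1.22, SE 0.14, edgeR adjusted p = 0.00455), while EXOSC3 stayed at 0.00. PGAM1 rose by 0.52 (SE 0.08, edgeR adjusted p = 0.00895) and SMAD9 by 1.49 (SE 0.24, edgeR adjusted p = 0.0111) on the log2 scale, where EXOSC1 and EXOSC8 were below 0. SRM rose by 0.42 (SE 0.10, edgeR adjusted p = 0.0358), a call lost without any single library (adjusted p 0.0533 to 0.114). ALG5, which overlaps EXOSC8 on the other strand, had a log2 fold change of -0.29 (SE 0.13, edgeR adjusted p = 0.182), and the same limit holds for this pair. It also holds for EXOSC3 (DCAF10 and TRMT10B), EXOSC5 (AC011462), EXOSC7 (ZDHHC3) and EXOSC10 (EXOSC10-AS1 and AL109811). ZDHHC3 held 2663 to 4848 counts, beside 1337 to 1880 for EXOSC7, with a log2 fold change of -0.09 (SE 0.23, edgeR adjusted p = 0.841). AC011462 held 738 counts in OX-LDL replicate 2, beside 548 for EXOSC5 there, and at most 1 elsewhere. It also overlaps BCKDHA on its own strand, which held 276 counts in that library and 693 to 1221 in the others. Which gene the 738 counts belong to was not tested.

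Of the 3 DIS3 family nucleases, 0 passed the edgeR test in either direction, where 15.3% of all genes tested did. DIS3, the main catalytic subunit in the nucleus, stood at 7.77, 6.18 and 5.99 FPKM in Control and at 9.07, 8.44 and 8.22 FPKM in OX-LDL. All OX-LDL values were above all Control values, but the log2 fold change of 0.40 (SE 0.12) did not pass the test (edgeR adjusted p = 0.0695). It passed without Control replicate 1 (adjusted p = 0.0208), the highest of the Control values, and also with DESeq2 (adjusted p = 0.0244) and in edgeR over genes averaging 1 FPKM or more (adjusted p = 0.0460). DIS3L, its cytoplasmic counterpart, was at -0.01 (SE 0.10, edgeR adjusted p = 0.971), and DIS3L2, a related nuclease that acts apart from the ring, at 0.15 (SE 0.09, edgeR adjusted p = 0.326).

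Cofactors that bring RNA to the nuclear exosome moved in both directions. Of 17 tested, 1 was lower, 3 were higher and 13 did not pass, beside 7.42% lower and 7.91% higher over all genes tested. Their log2 fold changes had a median of -0.06. ZCCHC8, the scaffold of the NEXT complex that delivers promoter upstream and enhancer RNA, stood at 11.4, 11.7 and 12.3 FPKM in Control and at 7.33, 6.66 and 6.95 FPKM in OX-LDL. Its groups lay clearly apart, and it fell by 0.73 on the log2 scale (SE 0.07, edgeR adjusted p = 0.00234). RBM7, which forms NEXT with ZCCHC8, was at 0.15 (SE 0.08, edgeR adjusted p = 0.267), and the shared helicase MTREX at 0.04 (SE 0.06, edgeR adjusted p = 0.757). RBM7 and MTREX were named after their values were seen. ZFC3H1, the core of the PAXT complex that delivers polyadenylated nuclear RNA, rose from 4.61 ± 0.158 to 6.34 ± 0.196 FPKM (SD, n = 3 each; log2 fold change 0.49, SE 0.07, edgeR adjusted p = 0.00772).

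SRRT (ARS2), which links the cap-binding complex to the exosome, rose by 0.47 (SE 0.08, edgeR adjusted p = 0.0149) on the log2 scale. That call was lost without Control replicate 2 (adjusted p = 0.0596). NCBP1, the large cap-binding subunit, rose by 0.25 (SE 0.07, edgeR adjusted p = 0.0496), right at the threshold, and its call was lost without each library except OX-LDL replicate 2 (adjusted p 0.0819 to 0.158). TENT4A, a poly(A) polymerase that tags RNA for the exosome, was at -0.24 (SE 0.07, edgeR adjusted p = 0.0575).

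Of 6 cofactors of the cytoplasmic exosome, 2 were lower, 0 higher and 4 did not pass, beside 7.42% lower and 7.91% higher over all genes tested, and the median log2 fold change was -0.02. HBS1L, whose short isoform bridges the SKI helicase complex to the exosome, stood at 11.8, 12.7 and 12.3 FPKM in Control and at 9.23, 8.80 and 8.72 FPKM in OX-LDL. It fell by 0.43 on the log2 scale (SE 0.06, edgeR adjusted p = 0.00806), with groups clearly apart. SKIC3 (TTC37), the scaffold of the SKI complex, stood at 18.6, 18.1 and 18.9 FPKM in Control and at 13.1, 14.4 and 13.4 FPKM in OX-LDL. It fell by 0.41 on the log2 scale (SE 0.07, edgeR adjusted p = 0.0125), a call lost without OX-LDL replicate 1 (adjusted p = 0.0509) or OX-LDL replicate 3 (adjusted p = 0.0554). The SKI helicase SKIC2 was at 0.18 (SE 0.08, edgeR adjusted p = 0.185), SKIC8 at 0.10 (SE 0.11, edgeR adjusted p = 0.602) and PELO, the partner of HBS1L in ribosome rescue, at -0.09 (SE 0.08, edgeR adjusted p = 0.523).

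**Figure D5:**
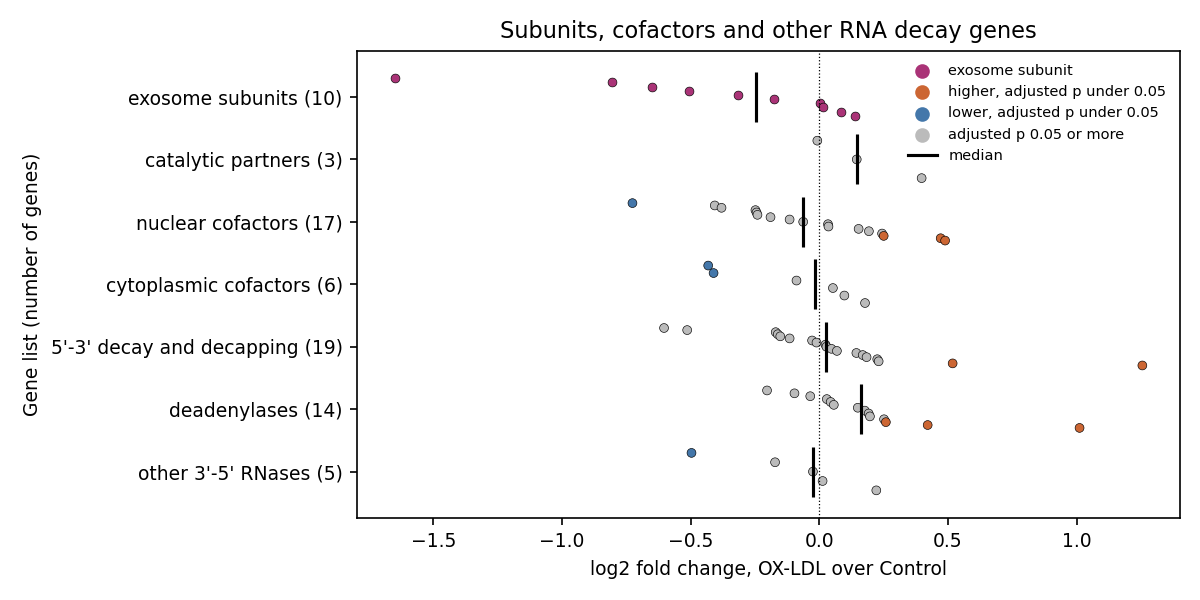
Fitted log2 fold change (OX-LDL over Control, 1 point per gene) of the exosome subunits and of 6 lists of catalytic partners, cofactors and other RNA decay genes, with the median of each list as a bar. Colour gives the direction of genes with an adjusted p under 0.05. EXOSC6 (-1.65) and EXOSC8 (-0.81) lie lower than every gene of the 6 lists, whose values run from -0.73 (ZCCHC8) to 1.26 (LSM3).

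The genes most like EXOSC6 across the 6 libraries were looked for among the 12258 genes that averaged 1 FPKM or more, by Pearson's r of log2 counts scaled for library size. The 5 closest were ANK2 (ankyrin B), WARS (the cytosolic tryptophanyl-tRNA synthetase), EIF4EBP1 (a repressor of cap-dependent translation), MLST8 (a subunit of both mTOR complexes) and SLC6A9 (a glycine transporter), with r from 0.998 to 0.999. Both groups enter these 6 points, so r mainly ranks genes by how cleanly they separate OX-LDL from Control in the direction of EXOSC6, and 589 genes (4.81%) reached an r of 0.95. When any library was left out, at most 2 of these 5 genes stayed among the 5 closest. WARS stood at 50.9, 57.2 and 60.4 FPKM in Control and at 13.8, 12.7 and 13.8 FPKM in OX-LDL, and SLC6A9 at 3.46, 3.73 and 3.46 FPKM against 0.140, 0.113 and 0.147 FPKM. Both were far lower in every OX-LDL library. MLST8 moved little, with means of 3.66 ± 0.0234 and 2.88 ± 0.0426 FPKM (SD, n = 3 each), and its log2 fold change of -0.31 (SE 0.09) did not pass the test (edgeR adjusted p = 0.0680).

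The same measure ranked AARS1 at 0.996, in place 25. Among the subunits, EXOSC8 had an r of 0.988 with EXOSC6, EXOSC4 0.936 and EXOSC5 0.923, all in the ring. EXOSC1 was at 0.764, EXOSC7 at 0.456 and EXOSC3 at 0.0330. EXOSC2 (-0.161), EXOSC9 (-0.696) and EXOSC10 (-0.782) lay below 0.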

How the data were processed

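RNA was sequenced from HK-2 cells as 3 Control and 3 OX-LDL libraries, prepared by poly(A) selection with dUTP strand marking. According to the submitters' processing notes, the tools were cutadapt 1.9, HISAT2 2.0.4 and StringTie 1.3.4d, with edgeR, DESeq2 and GRCh38 also named. The authors deposited estimated counts, not scaled for library size, and FPKM values scaled by the authors for transcript length and library size. Of identifiers shared with GENCODE 29, 81.2% had identical coordinates. The counts are whole numbers and were not rounded.

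Genes averaging 0.1 FPKM or more were tested with edgeR 4.0.16 (R 4.3.3; TMM, glmQLFit, glmQLFTest, group only) and adjusted by Benjamini-Hochberg over 19510 genes, with a threshold of 0.05. The SE was taken as log2 fold change over the root of F. The fit was tested on simulated data. Of these genes, 2991 (15.3%) passed. An exact permutation test of 3 against 3 libraries could not go below p = 0.1. Library pairs within a group had a chi-square per gene between 14.3 and 24.8, so none was deposited more than once. Alternatives used limma 3.58.1, DESeq2 1.42.0, other scalings and filters, a replicate block, and each library left out.

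The members and lists were chosen with earlier results of these data known. Named were all subunits and catalytic partners, up to 5 genes per other list with the smallest p, the neighbours of EXOSC6, other called neighbours, and the 5 genes most like EXOSC6.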

Additional observations from a re-analysis of the deposited data

How the results depend on the processing

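The count of 2991 genes past the threshold was 1161 to 2943 when a library was left out, 4430 with DESeq2 and 1636 with the replicate number as a block. Deviations of same-numbered libraries from their group means were hardly correlated (-0.0410, -0.00313 and 0.0356). These values cannot settle whether the libraries were prepared as pairs, which the labels do not say. Under that block EXOSC4, NCBP1, SKIC3, DCPS, PARN, SMG1P7 and SRM lost their calls. With limma on log2(FPKM + 1), a scale that compresses low values, the EXOSC6 log2 fold change was -1.46 and the difference from the mean of the other 9 was -1.22. Of the 10 subunits, 2 to 3 were past the threshold in each alternative, a count from which again nothing is read. Of the pathway lists, 12 genes passed, 7 to 10 when a library was left out (7 without Control replicate 2) and 17 with DESeq2. Of the 5 genes most like EXOSC6, 0 to 2 stayed among the 5 closest when a library was left out. Of the 23 named genes outside the complex that passed, 15 passed in every alternative. NCBP1 passed in 4 of 15, DCPS in 5, PARN in 3 and SRM in 5. Some named genes that did not pass also depended on the setting. TENT4A stayed short of the threshold in 10 of 15 alternatives, MLST8 in 11, DIS3 in 12, DDX6 and DXO in 13 and CNOT1 in 14. Each of these passed in the rest.

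Near 0, signs turned. EXOSC2, at 0.014, ran from -0.018 to 0.050 over all alternatives, and EXOSC3, at 0.0032, from -0.13 to 0.15. ERI1, at 0.01, was at -0.0099 with library totals in place of TMM and between -0.27 and 0.24 when a library was left out (-0.27 without Control replicate 2, -0.12 and -0.099 without OX-LDL replicates 1 and 2). DIS3L, at -0.01, was at 0.0018 with a minimum of 1 FPKM and between -0.079 and 0.039 when a library was left out (0.022, 0.037, 0.0083 and 0.039 without Control replicates 1 and 3 and OX-LDL replicates 1 and 2). REXO2, at -0.02, was between -0.16 and 0.11 when a library was left out (0.11 without Control replicate 1, 0.015 without OX-LDL replicate 1). The cause was not tested. At 15640337 to 19199402 read pairs, each subunit had at least 384 deposited counts in every library, at about 4 counts per read pair.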

Other observations

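Genes of other RNA decay routes were read in the same fit. Of 19 genes of decapping and 5′-to-3′ decay, 0 were lower, 2 were higher and 17 did not pass (over all genes tested, 7.42% were lower and 7.91% higher), with a median log2 fold change of 0.03. LSM3, a subunit of the LSM ring that starts decapping and also of the U6 spliceosomal particle, stood at 10.5, 7.51 and 9.16 FPKM in Control and at 20.8, 20.9 and 21.8 FPKM in OX-LDL. Every OX-LDL value was well above every Control value, and LSM3 rose by 1.26 on the log2 scale (SE 0.13, edgeR adjusted p = 0.00311). DCPS, the scavenger enzyme that clears the cap left by exosome decay, rose by 0.52 (SE 0.13, edgeR adjusted p = 0.0434), a call lost without any single library (adjusted p 0.0532 to 0.137). DDX6 (0.23, SE 0.06), DXO (-0.51, SE 0.18) and DCP2 (0.23, SE 0.09) did not pass, with edgeR adjusted p of 0.0613, 0.105 and 0.140. DXO passed without Control replicate 3 (adjusted p = 0.0304).

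Of 14 deadenylase genes, 0 were lower, 3 were higher and 11 did not pass, with a median of 0.16. Over all genes tested, 7.42% were lower and 7.91% higher. CNOT6L, a catalytic subunit of the CCR4-NOT complex, rose by 1.01 (SE 0.17, edgeR adjusted p = 0.0129), a call lost without Control replicate 2 (adjusted p = 0.0562), and CNOT11 rose by 0.42 (SE 0.07, edgeR adjusted p = 0.0103). PARN rose by 0.26 (SE 0.07, edgeR adjusted p = 0.0484), lost without any single library (adjusted p 0.0784 to 0.128). CNOT7 was at 0.25 (edgeR adjusted p = 0.0813) and CNOT1 at 0.20 (edgeR adjusted p = 0.0832). Of 5 other 3′-to-5′ RNase genes, 1 was lower, 0 were higher and 4 did not pass, beside the same shares over all genes. The lower gene was SUPV3L1, the mitochondrial RNA helicase. It stood at 12.1, 12.2 and 11.9 FPKM in Control and at 8.91, 8.22 and 7.99 FPKM in OX-LDL. SUPV3L1 fell by 0.50 (SE 0.07, edgeR adjusted p = 0.00860). Its nuclease partner PNPT1 was at 0.22 (edgeR adjusted p = 0.193), TOE1 at -0.17 (edgeR adjusted p = 0.291), REXO2 at -0.02 (edgeR adjusted p = 0.932) and ERI1 at 0.01 (edgeR adjusted p = 0.984). Over the 6 lists, 12 of 64 genes passed (18.8%, beside 15.3% of all genes tested), 4 lower and 8 higher.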
